A study of Mus musculus with 16 samples.

Results

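This section describes 3 mouse miRNAs known from red blood cells, mmu-miR-451, mmu-miR-144 and mmu-miR-486, in liver RNA. They were taken by name from a table of 650 miRNA features, of which 611 are mouse miRNAs, and all 3 were present, each as 1 feature. miR-451 and miR-144 come from 1 locus and are called the miR-144/miR-451 cluster, and miR-486 was set beside them. The table had 0 further features from the same hairpins.

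The 4 groups held 4 arrays each. CTNNB1KO phenobarbital and CTNNB1KO control livers came from male C3H mice in which Cre, driven by the albumin promoter, removed a floxed part of Ctnnb1 in hepatocytes, so that other liver cells were left with the gene. WT phenobarbital and WT control livers came from male wild-type C3H mice, and the labels do not say whether these carried the floxed allele or Cre. Phenobarbital was given at 0.05% in the diet for 12 weeks; controls ate a diet without it, although their labels name water as the agent. The sources used here give neither the age of the mice nor whether each array stands for an animal of its own, so the p-values reflect variation between these arrays, part of which may be technical.

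Ctnnb1 encodes beta-catenin, the co-activator of Wnt signalling that sets the gene programme of hepatocytes around the central vein. Phenobarbital activates the nuclear receptor CAR and promotes liver tumours in mice. The miR-144/miR-451 locus is activated by the erythroid factor GATA-1, and its miRNAs accumulate as red cells mature. Liver holds much blood, so RNA of red cells is part of a liver RNA extract. Fewer red cells in a sample and less of a miRNA per red cell cannot be told apart in bulk tissue.

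The mature sequences are shown because both cluster members are read from 1 short stretch of chromosome 11 but carry unrelated seeds, the bases 2 to 8 that pair with target mRNAs (capitals). They are RefSeq's, on GRCm38.p6: miR-451a lies at chr11:78073186-78073207 and miR-144-3p at chr11:78073047-78073066, both on the plus strand. The array's miR-451 was taken as miR-451a and its unmarked miR-144 as the 3p arm, from older naming; probe sequences were not used here, so the arm was not checked.
miR-451a: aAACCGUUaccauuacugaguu
miR-144-3p: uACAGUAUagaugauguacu

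The hairpins are shown with the mature miRNA in capitals. The Mir144 hairpin, at chr11:78073005-78073070, ends 99 bases before the Mir451a hairpin, at chr11:78073170-78073241, on the same strand. In Mir451a the mature miRNA covers bases 17 to 38 of 72 and runs across the loop. That hairpin is cut by Argonaute 2 and not by Dicer, whereas miR-144 is made by Dicer.
Mir144 hairpin: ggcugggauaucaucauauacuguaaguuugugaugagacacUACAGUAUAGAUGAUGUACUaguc
Mir451a hairpin: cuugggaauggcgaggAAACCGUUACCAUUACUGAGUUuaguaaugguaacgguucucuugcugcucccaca

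Of the 1738 mature mouse miRNAs in the RefSeq table, 0 others shared bases 2 to 8 with miR-451a or with miR-144-3p. The liver miRNA miR-101a-3p shared bases 2 to 7 with miR-144-3p, marked in capitals here, and was the only one in that table to do so.
miR-101a-3p: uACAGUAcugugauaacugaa

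No sequence is shown for miR-486. In the RefSeq gene table Mir486 lies inside Ank1, the gene of the red-cell membrane protein ankyrin. miR-486 is also made in striated muscle.

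In CTNNB1KO livers miR-144 fell in both diets and miR-451 fell in controls, and phenobarbital did not detectably change any of the 3 miRNAs. Under phenobarbital miR-451 was 1.81-fold lower in CTNNB1KO (interval 1.24 to 2.65) but did not pass. The call of miR-144 in that diet was lost without some single arrays. Averaged over both diets, miR-144 fell 3.02-fold and miR-451 fell 2.49-fold in CTNNB1KO livers against WT livers, while miR-486, a dim feature, was 1.38-fold lower and did not pass. All 8 CTNNB1KO arrays lay below all 8 WT arrays for miR-451 and for miR-144, by 0.09 and 0.08 between the nearest arrays. The share of all mouse miRNAs for which this held was not counted. Within a diet, the CTNNB1KO arrays lay below all WT arrays for 3.44% of mouse miRNAs in controls and 7.04% under phenobarbital.

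**Figure D1:**
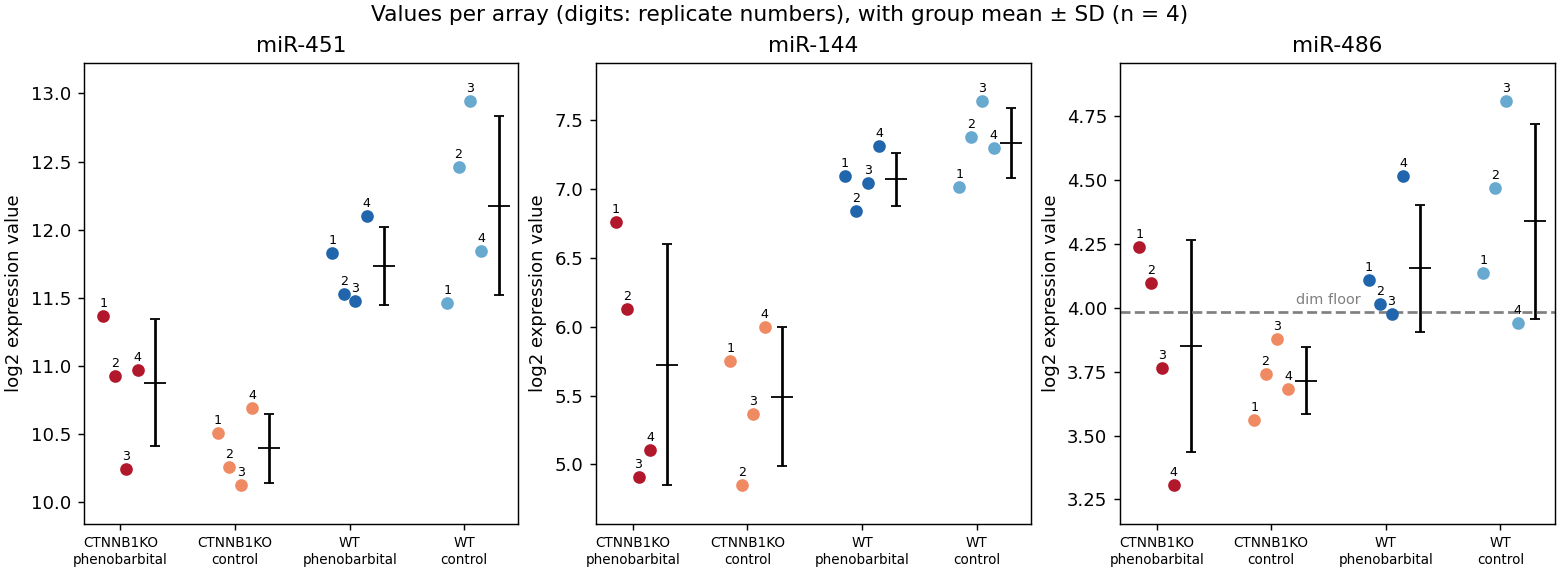
Log2 expression values of miR-451, miR-144 and miR-486 (vertical axes) on each array, with replicate numbers, for the 4 groups (horizontal axes); black bars are group means ± SD (n = 4), and the dashed line is the dim floor of 3.98. All CTNNB1KO points lie below all WT points for miR-451 and miR-144, whereas the miR-486 points of the 2 genotypes overlap around the floor. Within a diet, such a separation held for 3.44% of mouse miRNAs in controls and 7.04% under phenobarbital.

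miR-451 supports red-cell differentiation and, in mice, protection of red cells from oxidant stress. In CTNNB1KO phenobarbital replicates 1 to 4 its log2 values were 11.37, 10.92, 10.24 and 10.97. In CTNNB1KO control replicates 1 to 4 they were 10.51, 10.26, 10.12 and 10.70. In WT phenobarbital replicates 1 to 4 they were 11.83, 11.53, 11.48 and 12.10, and in WT control replicates 1 to 4 they were 11.46, 12.46, 12.94 and 11.84. The genotypes were apart in both diets, by 0.76 between the nearest control arrays and by 0.11 between the nearest phenobarbital arrays. From low to high the group means were 10.40 ± 0.25 (CTNNB1KO control), 10.88 ± 0.47 (CTNNB1KO phenobarbital), 11.73 ± 0.29 (WT phenobarbital) and 12.18 ± 0.66 (WT control; SD, n = 4 each). The 2 diets of a genotype, neighbours in that order, overlapped.

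miR-144, processed from the same transcript, is known to repress the oxidative-stress factor NRF2 in human red cells. Its log2 values were 6.76, 6.13, 4.91 and 5.10 in CTNNB1KO phenobarbital replicates 1 to 4. They were 5.75, 4.85, 5.37 and 6.00 in CTNNB1KO control replicates 1 to 4. WT phenobarbital replicates 1 to 4 had 7.09, 6.84, 7.04 and 7.31, and WT control replicates 1 to 4 had 7.02, 7.38, 7.64 and 7.30. The genotypes lay 1.02 apart between the nearest control arrays and 0.08 apart between the nearest phenobarbital arrays, CTNNB1KO phenobarbital replicate 1 being close to the WT range. The group means ran in the same order as for miR-451: 5.49 ± 0.50 in CTNNB1KO control, 5.73 ± 0.87 in CTNNB1KO phenobarbital, 7.07 ± 0.19 in WT phenobarbital and 7.33 ± 0.26 in WT control livers (SD, n = 4 each). The 2 diets of each genotype overlapped here too.

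miR-486, which targets the transcription factor FOXO1 in muscle, was close to background. Background is given by the dim floor of 3.98, the 0.95 quantile of the mean values of the 39 viral miRNA features, which have no source in these mice. miR-486 had 4.24, 4.10, 3.76 and 3.31 in CTNNB1KO phenobarbital replicates 1 to 4 and 3.56, 3.74, 3.88 and 3.68 in CTNNB1KO control replicates 1 to 4. It had 4.11, 4.02, 3.98 and 4.52 in WT phenobarbital replicates 1 to 4 and 4.14, 4.47, 4.81 and 3.94 in WT control replicates 1 to 4. Over the floor were 2 of 4 CTNNB1KO phenobarbital arrays, 0 of 4 CTNNB1KO control arrays, 3 of 4 WT phenobarbital arrays and 3 of 4 WT control arrays. Its highest value lay 0.82 over the floor, whereas miR-144 was at least 0.86 and miR-451 at least 6.14 over it on every array. The group means were 3.72 ± 0.13 (CTNNB1KO control), 3.85 ± 0.42 (CTNNB1KO phenobarbital), 4.15 ± 0.25 (WT phenobarbital) and 4.34 ± 0.38 (WT control; SD, n = 4 each), and neighbours in that order overlapped.

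In controls, the comparison asks what loss of Ctnnb1 changed without phenobarbital. miR-451 fell by 1.78 ± 0.26 on the log2 scale (SE; limma adjusted p = 0.00128), or 3.43-fold with a 95% confidence interval of 2.35 to 5.02. miR-144 fell by 1.84 ± 0.32 (limma adjusted p = 0.00378), or 3.58-fold with an interval of 2.24 to 5.72. Among the 611 mouse miRNAs tested these were the 2 most negative differences. miR-486 was lower on all 4 CTNNB1KO arrays but did not pass, at -0.62 ± 0.20 (limma adjusted p = 0.217). Every CTNNB1KO control array was under the floor, and the WT control mean of miR-486 lay 1.28-fold over it. That value carries no sampling error and is not a lower limit, since the limma fold interval was 1.16 to 2.04. In this comparison 2 of the 3 miRNAs fell, where 0.491% of all mouse miRNAs fell and 0.327% rose. All 3 had groups that did not overlap, with CTNNB1KO lower, which held for 3.44% of mouse miRNAs. The gap for miR-486 was 0.06.

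Under phenobarbital, miR-144 alone of the 3 passed, with a fall of 1.35 ± 0.32 in CTNNB1KO livers (limma adjusted p = 0.0174), or 2.54-fold with an interval of 1.59 to 4.06. miR-451 differed by -0.86 ± 0.26 (limma adjusted p = 0.0829; 1.81-fold lower, interval 1.24 to 2.65) and miR-486 by -0.30 ± 0.20 (limma adjusted p = 0.588). All 4 CTNNB1KO arrays lay below all 4 WT arrays for miR-451 and miR-144, and 2 of 4 did so for miR-486. Under this diet 3.27% of mouse miRNAs fell and 0.491% rose, and 7.04% had CTNNB1KO arrays all below the WT arrays. The call of miR-144 was lost without WT phenobarbital replicate 4, CTNNB1KO phenobarbital replicate 3 or CTNNB1KO phenobarbital replicate 4 (limma adjusted p = 0.066, 0.0762 and 0.0565) and in an ordinary linear model (0.08).

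Averaging over both diets used all 16 arrays. miR-144 fell by 1.59 ± 0.23 (limma adjusted p = 0.000121; fold interval 2.17 to 4.20). miR-451 fell by 1.32 ± 0.19 (limma adjusted p = 0.000113; fold interval 1.91 to 3.26). Both calls held under all 8 other settings that gave a value and without any 1 of the 16 arrays. miR-486 differed by -0.46 ± 0.14 (limma adjusted p = 0.0556, fold interval 1.13 to 1.68). It passed without WT control replicate 4, CTNNB1KO phenobarbital replicate 1 or CTNNB1KO phenobarbital replicate 2 (limma adjusted p = 0.0318, 0.0205 and 0.0462). These arrays held the lowest WT value of miR-486 (3.94) and its 2 highest CTNNB1KO values (4.24 and 4.10). Its difference thus had to grow without any 1 of them, and these passes are no further support. Of all mouse miRNAs, 4.09% fell and 1.47% rose in this average.

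**Figure D2:**
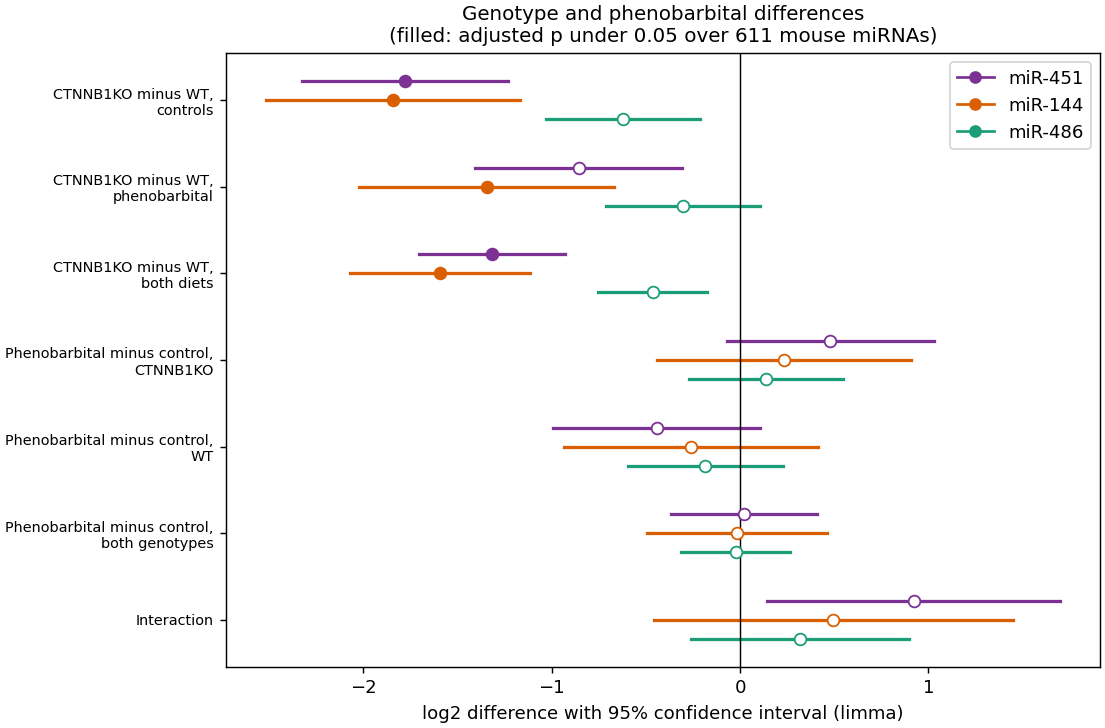
Log2 differences (horizontal axis) of the 3 miRNAs in 7 comparisons (vertical axis) with 95% confidence intervals from limma; filled points had an adjusted p under 0.05 over 611 mouse miRNAs. The filled points are miR-451 and miR-144 in the genotype comparisons of controls and of both diets and miR-144 under phenobarbital; all intervals of phenobarbital against control include 0, and that of the interaction of miR-451 does not.

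No phenobarbital difference of the 3 miRNAs passed, and every interval included 0. In CTNNB1KO livers phenobarbital differed from control by 0.48 for miR-451 (interval -0.07 to 1.03), 0.23 for miR-144 (-0.44 to 0.91) and 0.14 for miR-486 (-0.27 to 0.55). In WT livers the differences were -0.44 for miR-451 (-0.99 to 0.11), -0.26 for miR-144 (-0.94 to 0.41) and -0.18 for miR-486 (-0.59 to 0.23). Limma adjusted p-values were 0.989 for each of the 3 in CTNNB1KO and between 0.804 and 0.999 in WT. None of the 3 passed, where 0% of mouse miRNAs passed in CTNNB1KO and 2.78% in WT. In CTNNB1KO livers 32 of the 611 had an unadjusted p under 0.05 in limma. Averaged over both genotypes all 3 were within 0.03 of 0, where 1.8% of mouse miRNAs passed.

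The interaction subtracts the phenobarbital difference of WT livers from that of CTNNB1KO livers. It was 0.92 ± 0.37 for miR-451 (interval 0.14 to 1.70; limma adjusted p = 0.374). For miR-144 it was 0.50 ± 0.46 and for miR-486 0.32 ± 0.28, each with a limma adjusted p of 0.876. None passed, where 1.15% of mouse miRNAs did. The smaller genotype difference of miR-451 under phenobarbital is thus not shown to differ from that in controls.

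The 3 miRNAs were next compared with each other by taking log2 differences within each array, which removes whatever is shared by both on that array. For differences from miR-486 these values cannot tell an unequal change from an equal one, because 6 of 8 CTNNB1KO arrays read miR-486 under the dim floor and its mean in WT controls lay only 0.35 over it. A fall of miR-486 as large as that of the cluster could not have been read, and a miRNA that fell that far had to give a negative genotype change against it. miR-451 minus miR-486 was 7.03 ± 0.50 in CTNNB1KO phenobarbital, 6.68 ± 0.36 in CTNNB1KO control, 7.58 ± 0.10 in WT phenobarbital and 7.84 ± 0.36 in WT control livers (SD, n = 4 each). The genotype change averaged over both diets was -0.86 (exact permutation p = 0.00163, two-sided, 4900 permutations within diet; adjusted p = 0.0049 over 6 tests). It was -1.16 in controls and -0.55 under phenobarbital.

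miR-144 minus miR-486 was 1.87 ± 0.57 in CTNNB1KO phenobarbital, 1.78 ± 0.58 in CTNNB1KO control, 2.92 ± 0.13 in WT phenobarbital and 2.99 ± 0.25 in WT control livers (SD, n = 4 each). The genotype change was -1.13 (exact permutation p = 0.000408, the smallest that 4900 permutations can give; adjusted p = 0.00245), at -1.22 in controls and -1.04 under phenobarbital. The CTNNB1KO arrays lay below the WT arrays in both diets, with a highest value of 2.52 in CTNNB1KO and a lowest of 2.79 in WT. Whether the cluster and miR-486 changed by unequal amounts is thus not shown.

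Within the cluster, miR-144 minus miR-451 was -5.15 ± 0.57 in CTNNB1KO phenobarbital, -4.91 ± 0.34 in CTNNB1KO control, -4.66 ± 0.16 in WT phenobarbital and -4.84 ± 0.42 in WT control livers (SD, n = 4 each). Its genotype change of -0.28 did not pass (exact permutation p = 0.198, adjusted p = 0.396), at -0.06 in controls and -0.49 under phenobarbital. Phenobarbital minus control was 0.04, 0.01 and -0.03 for the 3 within-array differences (adjusted p = 0.965 for each, exact permutation within genotype). The within-array values do not set the abundance of one miRNA against another, since features differ in brightness.

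**Figure D3:**
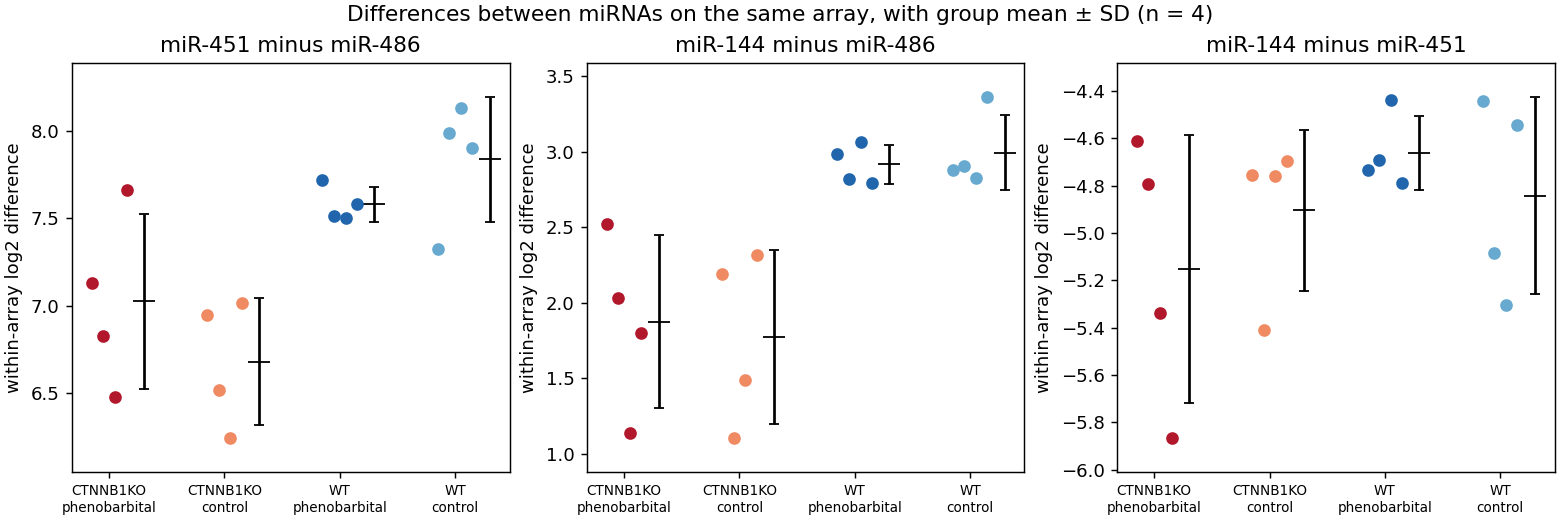
Log2 differences between 2 miRNAs on the same array (vertical axes) for the 4 groups (horizontal axes), 1 point per array, with group means ± SD (n = 4). Differences from miR-486 are lower in both CTNNB1KO groups than in both WT groups on average, while miR-144 minus miR-451 overlaps among all 4 groups.

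The relation of miR-144 to miR-451 from array to array passed in WT and did not pass in CTNNB1KO, and whether the genotypes differ in it was not tested. Correlations were taken within each genotype (n = 8 arrays, both diets together), because the genotypes formed separate clusters. In CTNNB1KO, miR-451 and miR-144 had r = 0.75 (exact permutation p = 0.0346, adjusted p = 0.0519 over 6 relations) and rho = 0.62 (exact permutation p = 0.115, adjusted p = 0.198). In WT they had r = 0.93 (exact permutation p = 0.000422, adjusted p = 0.00253) and rho = 0.93 (exact permutation p = 0.00223, adjusted p = 0.0134). Without the 2 arrays farthest from the median of miR-451 the r was 0.57 in CTNNB1KO and 0.81 in WT (exact permutation p = 0.221 and 0.0514, n = 6). Fewer arrays and a narrower range of miR-451 can by themselves raise p. Whether the relation depends on the arrays left out is thus not shown. CTNNB1KO phenobarbital replicate 4 had the second highest miR-451 of the 8 CTNNB1KO arrays (10.97) beside one of the lowest miR-144 values (5.10).

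With miR-486 the relation was seen in WT by r alone. miR-451 and miR-486 had r = 0.30 in CTNNB1KO (exact permutation p = 0.475) and r = 0.90 in WT (exact permutation p = 0.00459, adjusted p = 0.0138), with rho = 0.05 and 0.60 (exact permutation p = 0.935 and 0.132). Without the 2 farthest arrays the r was -0.10 in CTNNB1KO and 0.65 in WT (exact permutation p = 0.829 and 0.143). The WT relation thus did not pass without control replicates 2 and 3, which had the highest values of all 3 miRNAs among the WT controls. Here too fewer arrays over a narrower range of miR-451 were left. miR-144 and miR-486 had r = 0.64 in CTNNB1KO (exact permutation p = 0.0892) and r = 0.80 in WT (exact permutation p = 0.0159, adjusted p = 0.0319), with rho = 0.48 and 0.62 (exact permutation p = 0.243 and 0.115). Without the 2 arrays farthest in miR-144 these were 0.44 and 0.59 (exact permutation p = 0.386 and 0.278).

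**Figure D4:**
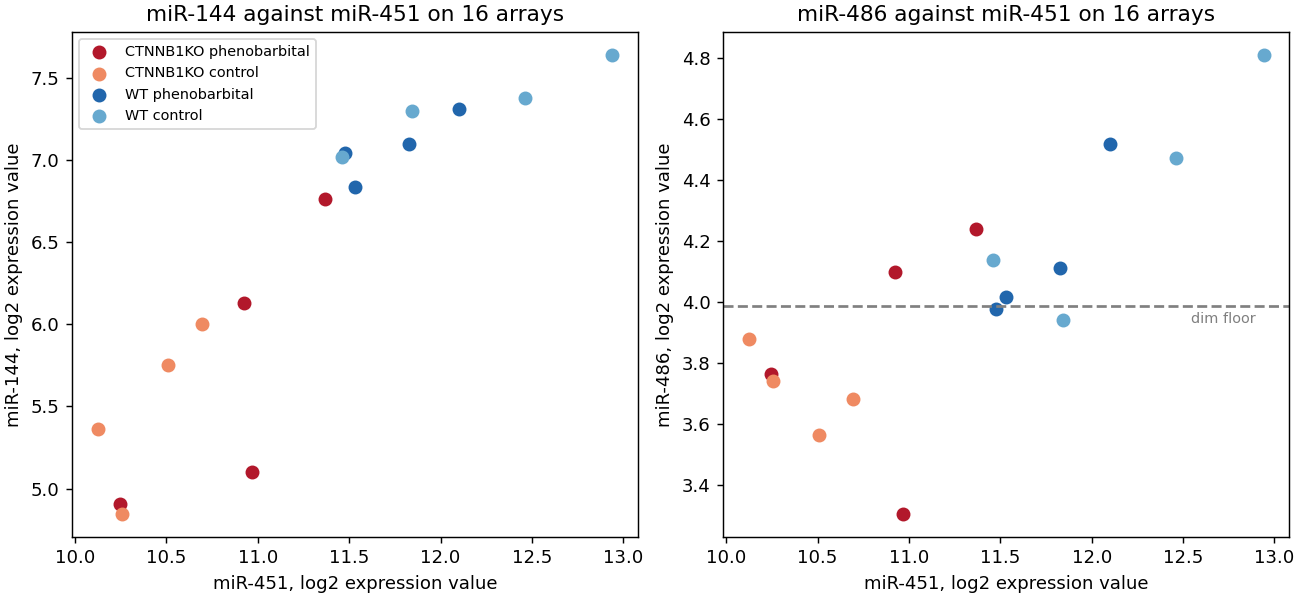
Log2 values of miR-144 (left) and miR-486 (right) against miR-451 on 16 arrays, coloured by group; the dashed line is the dim floor of 3.98. The CTNNB1KO arrays occupy the lower left for miR-144, and 6 of 8 of them lie under the floor for miR-486.

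The miRNAs with the most similar pattern over all 16 arrays were taken among the 140 others above the floor in at least 1 group, as a description; the points share arrays and the genotype difference. For miR-451 they were miR-144 (r = 0.91), miR-25 (0.84), miR-486 (0.80), miR-16 (0.73) and miR-106b (0.72). For miR-144 they were miR-451 (0.91), miR-27b (0.86), miR-25 (0.86), miR-365 (0.85) and miR-101a (0.85), and for miR-486 they were miR-451 (0.80), miR-144 (0.79), miR-185 (0.78), miR-27b (0.74) and miR-25 (0.73). Over all 16 arrays, with the genotype difference included, the 3 miRNAs were thus in each other's nearest sets except that miR-486 was not among the 5 of miR-144. By deviations from group means miR-451 left the nearest 5 of miR-144, and both cluster members left those of miR-486. The r of miR-486 was then 0.69 with miR-185, 0.60 with miR-451 and 0.58 with miR-144. After group means were removed, miR-144 had r = 0.85 with miR-101a, 0.75 with miR-27b, 0.73 with miR-365, 0.68 with miR-451 and 0.31 with miR-25; of these, miR-101a alone shares its bases 2 to 7. In the genotype average miR-101a differed by -0.33 ± 0.13 and did not pass (limma adjusted p = 0.226). The related miR-101b, which carries the same 6 bases shifted by 1 position, fell by 0.49 ± 0.12 (limma adjusted p = 0.0176); in controls and under phenobarbital alone it did not pass (-0.45 and -0.53, limma adjusted p = 0.468 and 0.0875).

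Other miRNAs abundant in red cells were counted from a list of 21 measured miRNAs, many of which other liver cells also express. In controls 1 of 21 fell, miR-25, from the cluster inside the replication gene Mcm7, by 0.52 ± 0.12 (limma adjusted p = 0.0428), and 0 rose, where 0.491% of all mouse miRNAs fell and 0.327% rose. The list's median difference was -0.28, against 0.02 over all mouse miRNAs. Under phenobarbital 0 of 21 passed and the median was -0.05, against 0.02. Averaged over both diets 4 of 21 fell and 0 rose, namely miR-25 by 0.44 ± 0.08 (limma adjusted p = 0.00194), miR-19a by 0.54 ± 0.13 (0.0193), miR-92a by 0.51 ± 0.14 (0.0316) and miR-103 by 0.37 ± 0.10 (0.0422). Of all mouse miRNAs 4.09% fell and 1.47% rose there. The bases are unlike, since 17 of the 21 were above the floor in some group, against 141 of all 611. The lists below also held a larger share above the floor than the 611. miR-16, an abundant miRNA of red cells, differed by -0.55 ± 0.14 in controls (limma adjusted p = 0.0899) and -0.05 ± 0.14 under phenobarbital (0.952). The log2 of the summed intensity of the 21 was 13.37 to 13.50 in CTNNB1KO phenobarbital, 13.39 to 13.55 in CTNNB1KO control, 13.42 to 13.48 in WT phenobarbital and 13.44 to 13.86 in WT control livers, so the groups overlapped on this total. None of the 21 passed in the comparisons of phenobarbital with control or in the interaction.

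Among 6 miRNAs that decline as red cells mature, 1 rose in the average over both diets, miR-223, by 1.10 ± 0.31 (limma adjusted p = 0.0426), where 1.47% of all mouse miRNAs rose. It is also the granulocyte miRNA of the leukocyte list, and 0 of the other 5 passed in any comparison. The median difference of the 6 was 0.08, against 0.02 over all mouse miRNAs.

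Markers of other cells moved with genotype as well. Of 7 leukocyte miRNAs, 0 passed in controls and 1 rose in CTNNB1KO under phenobarbital, the blood-cell miRNA miR-142-5p, by 1.09 ± 0.28 (limma adjusted p = 0.0267), where 0.491% of all mouse miRNAs rose. Averaged over both diets 3 rose and 0 fell: miR-223, miR-142-5p by 0.76 ± 0.20 (limma adjusted p = 0.0268) and miR-146a by 0.73 ± 0.19 (0.0285), where 1.47% of all mouse miRNAs rose. Above the floor in some group were 5 of the 7, against 141 of all 611 mouse miRNAs. The log2 of the summed intensity of the 7 ranged from 8.32 to 9.91 in CTNNB1KO phenobarbital, 8.09 to 10.13 in CTNNB1KO control, 7.81 to 8.21 in WT phenobarbital and 8.08 to 8.40 in WT control livers. CTNNB1KO control replicates 3 and 4 had leukocyte sums of 8.09 and 8.30, inside the WT control range, beside miR-451 at 10.12 and 10.70 and miR-144 at 5.37 and 6.00. The highest leukocyte sums, on CTNNB1KO control replicate 2 (10.13) and CTNNB1KO phenobarbital replicates 4 (9.91) and 3 (9.88), stood beside the 3 lowest values of miR-144 (4.85, 5.10 and 4.91). The part of leukocyte RNA in the values of the 3 miRNAs was not tested.

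Muscle miRNAs were carried by 2 arrays, CTNNB1KO phenobarbital replicates 1 and 2, where the log2 summed intensity of 7 muscle miRNAs was 9.31 and 7.60. On the other 14 arrays it lay between 6.01 and 6.25, and 0 of the 7 were over the floor on any of these. The same 2 arrays had the 2 highest CTNNB1KO values of miR-144 and of miR-486, and replicate 1 had the highest of miR-451. The part of muscle RNA in these values was not tested. Without both arrays the genotype difference under phenobarbital was -2.07 for miR-144, -1.13 for miR-451 and -0.62 for miR-486 (limma adjusted p = 5.19e-05, 0.0312 and 0.0932). Averaged over both diets miR-486 then passed at -0.62 ± 0.13 (limma adjusted p = 0.0057). The 2 arrays left out ranked 1 and 2 among the 8 CTNNB1KO arrays for miR-144 and 1 and 3 for miR-451. The differences of both miRNAs under phenobarbital thus had to grow. These 2 were also the only CTNNB1KO arrays with miR-486 over the floor, so its difference had to grow too. That fit held 2 CTNNB1KO phenobarbital arrays, and every remaining CTNNB1KO array read miR-486 under the floor. The phenobarbital difference of miR-144 in CTNNB1KO was then -0.49 in place of 0.23.

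**Figure D5:**
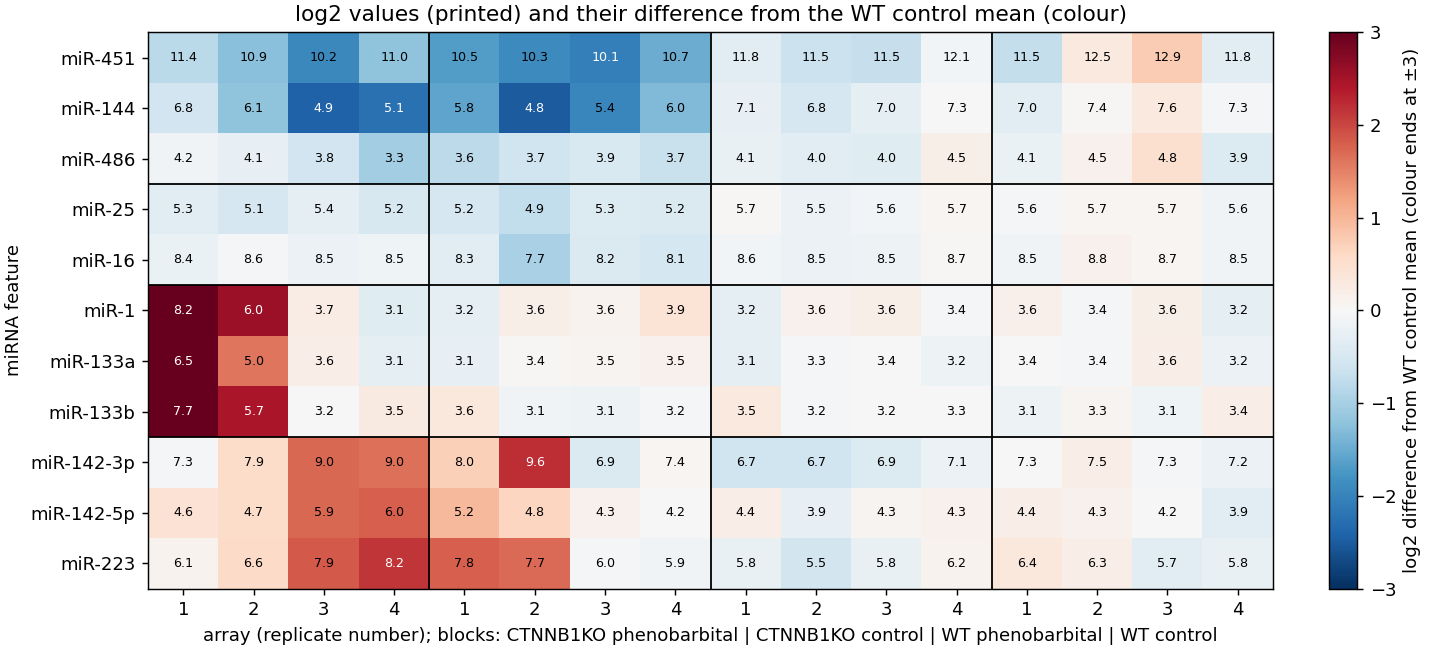
Log2 values (printed) of the 3 red-cell miRNAs, 2 further miRNAs, 3 muscle and 3 leukocyte miRNAs (rows) on the 16 arrays (columns, by group and replicate), coloured by the log2 difference from the WT control mean. miR-1 stands at 8.17 and 6.03 on CTNNB1KO phenobarbital replicates 1 and 2, where miR-144 (6.76 and 6.13) is highest among CTNNB1KO arrays.

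The liver origin of the samples was checked on 3 hepatocyte miRNAs, whose log2 summed intensity was 15.18 to 15.44 in CTNNB1KO phenobarbital, 15.19 to 15.35 in CTNNB1KO control, 15.27 to 15.38 in WT phenobarbital and 15.41 to 15.42 in WT control livers. None of the 3 passed in any comparison. The pair of endothelial miRNAs did not pass either. In the average over both diets 1 of 5 stellate or mesenchymal miRNAs rose, miR-214 by 0.45 ± 0.12 (limma adjusted p = 0.0316), and 1 of 6 biliary or epithelial miRNAs rose, miR-31 by 0.89 ± 0.18 (0.00397), where 1.47% of all mouse miRNAs rose. The array carries no mRNA probe for Ctnnb1, which left the deletion unchecked. Between 100 and 133 mouse miRNAs were over the dim floor on each array, fewest on CTNNB1KO phenobarbital replicate 4. Arrays of a group correlated between 0.966 and 0.996 over all mouse miRNAs, and their number limits the precision.

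Within groups the 3 miRNAs varied more than most. Among the 141 mouse miRNAs above the floor in at least 1 group, sorted by the SD around group means, miR-144 stood at place 9 (SD 0.53), miR-451 at place 15 (SD 0.45) and miR-486 at place 35 (SD 0.32). miR-144 varied more in CTNNB1KO (SD 0.87 with phenobarbital and 0.50 in controls) than in WT (SD 0.19 and 0.26), while for miR-451 the largest SD was in WT controls (0.66). These SDs were not compared by a test.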

How the data were processed

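The log2 values were deposited by the authors, 1 value per miRNA feature and array in 1 table; RMA and limma are the tools named, per the submitters' processing notes, with no settings given. The labelling kit was Agilent's for miRNA, per the labels' protocols. RMA usually scales arrays to each other, which can remove a shift shared by most miRNAs. No scanner intensities, detection calls or slides were used here.

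For all 611 mouse miRNAs, the 4 group means were fitted over 16 arrays with limma 3.58.1 in R 4.3.3 and moderated by eBayes with an intensity trend, with Benjamini-Hochberg adjustment over the 611 and a threshold of 0.05, two-sided. Folds are 2 to the power of log2 differences. Differences within arrays and correlations were tested by exact permutation in Python 3.11.15 (scipy 1.17.1). List intensities are sums of values taken back from log2. The scripts were tested on simulated data. The members, lists, tests and alternatives were chosen with earlier results of these data known.

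Named miRNAs were the 3 members, the 5 most similar to each, those sharing seed bases and list members that passed. Groups and replicate numbers came from the sample titles. Same-numbered arrays were not paired: 6 of 24 pairs of arrays had deviations correlated over 0.1. RefSeq sequences matched 2 of the 3 members.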

Additional observations from a re-analysis of the deposited data

Results flagged for a closer look

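Outliers were looked for in 24 groups of 4 arrays, and chance alone marks about 1 in 20 such groups. The within-array difference miR-144 minus miR-486 was 3.36 on WT control replicate 4, far from 2.88, 2.91 and 2.83 on the other WT controls (gap over range 0.853, critical value 0.829). On that array miR-486 was 3.94, its lowest WT value, and under the dim floor.

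The within-array difference miR-144 minus miR-451 was -5.41 on CTNNB1KO control replicate 2, against -4.76, -4.76 and -4.69 on the other CTNNB1KO controls (gap over range 0.909). That array had the lowest miR-144 of all 16 (4.85) and the highest leukocyte sum (10.13). The part of leukocyte RNA in it was not tested.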

How the results depend on the processing

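The falls of miR-451 and miR-144 in CTNNB1KO controls and in the average over both diets kept their direction and call under every alternative run and without any 1 array. The genotype changes of the 2 differences from miR-486 did so too. With miR-486 near the dim floor, their negative sign had to follow from the falls of the cluster, so it shows nothing further. Under phenobarbital miR-451 passed with array weights (-0.94, limma adjusted p = 0.031), among miRNAs above the floor (-0.86, 0.0355), with only the 2 groups compared (-0.86, 0.0337) and without the 2 muscle-bearing arrays (-1.13); single arrays left out gave -1.02 to -0.65. miR-144 there was -1.35 with an ordinary linear model, which ended its call, and -1.69 to -1.07 with single arrays left out. miR-486 passed with array weights in controls (-0.84, limma adjusted p = 0.0173). In the average over both diets it passed with array weights (-0.53) and above the floor (-0.46, limma adjusted p = 0.0258). It also passed there without the muscle-bearing arrays (-0.62), the only CTNNB1KO arrays with miR-486 over the floor. Single arrays left out gave -0.53 to -0.37. The cause was not tested, except that fewer miRNAs were tested above the floor. miR-486 was in that smaller set through its WT means alone, 4.15 with phenobarbital and 4.34 in controls. Its CTNNB1KO means, 3.85 with phenobarbital and 3.72 in controls, lay under the floor. The set thus took in miR-486 by its higher genotype, and its pass there is no further support for a fall.

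Phenobarbital differences, none of which passed, turned sign in places. Over both genotypes miR-451 was -0.16 with array weights and -0.12 without the muscle-bearing arrays (single arrays -0.10 to 0.15). Centring moved the median of all miRNAs to 0.15 in the genotype comparison under phenobarbital and to 0.039 in the phenobarbital comparison over both genotypes. In the latter, miR-144 was 0.029 on centred arrays (single arrays -0.19 to 0.12) and miR-486 0.019 (-0.090 to 0.067). Without the muscle-bearing arrays the differences in CTNNB1KO were -0.49 for miR-144 (single arrays -0.11 to 0.51) and -0.18 for miR-486, and the interaction of miR-144 was -0.22. Of the within-array differences, miR-451 minus miR-486 was -0.076 with medians (single arrays -0.063 to 0.13), miR-144 minus miR-486 was -0.19 without the muscle-bearing arrays (-0.10 to 0.13), and miR-144 minus miR-451 ran from -0.12 to 0.085.

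Counts of miRNAs that passed moved by over 1.5 times in places. In controls 5 passed, against 9 with array weights, 8 above the floor, 3 with the 2 groups alone and 3 to 7 with single arrays left out. Under phenobarbital 23 passed, against 49 with array weights, 35 above the floor and 40 without the muscle-bearing arrays. Over both diets 34 passed (21 to 40). For phenobarbital in CTNNB1KO 0 passed, against 1 without the muscle-bearing arrays (0 to 1); in WT 17, against 29 with array weights; over both genotypes 11, against 7 with an ordinary linear model and 7 without the muscle-bearing arrays (6 to 16). For the interaction 7 passed, against 20 with array weights, 4 on centred arrays and 2 with an ordinary linear model (5 to 13).

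With the replicate block, which pairs arrays that share only a number, no call of the 3 miRNAs changed (miR-451 in controls, limma adjusted p = 0.0026; miR-144 in controls, 0.00787). Of the 5 most similar miRNAs, 3 were shared with Spearman's measure for each of the 3, and 2, 1 and 1 with deviations from group means.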
